A study of Chlorocebus sabaeus with 45 samples.

Results

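Plasma cells are the antibody-secreting end stage of the B cell lineage, and 9 genes tied to their formation and upkeep were followed here in whole blood of vervet monkeys (Chlorocebus sabaeus). The genes were taken by symbol from the deposited expression tables: PRDM1, XBP1, IRF4, POU2AF1, TNFRSF17, SDC1, MZB1, TXNDC5 and DERL3. All 9 were among the 33994 genes listed and all 9 passed the filter that left 18753 genes for testing. The study followed 15 juvenile males from St. Kitts through relocation and quarantine, and each animal gave a sample on each of 3 days, 45 libraries in all. Day 0 (Tp1) was the baseline in the field, before the move. Days 3 (Tp2) and 14 (Tp4, by the sample labels) came after the move, while the animals were housed singly. The animals carried no transgene or other treatment. They were sedated with ketamine and xylazine in the field and with dexmedetomidine and midazolam afterwards, and these agents and the place of sampling cannot be told apart from time in comparisons with day 0. Days 3 and 14 shared sedation and housing.

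An activated B cell becomes a plasma cell when the B cell programme held by PAX5, BACH2 and BCL6 gives way to PRDM1 (Blimp-1), a repressor of B cell genes. IRF4 drives the switch at high dose, and XBP1 then enlarges the endoplasmic reticulum (ER) for antibody secretion. POU2AF1 (OBF-1) is a B cell coactivator of octamer factors. TNFRSF17 (BCMA) is the survival receptor of plasma cells for the cytokines APRIL and BAFF, and SDC1 (CD138) is their classical surface marker. MZB1 is an ER protein that helps immunoglobulin folding and secretion, TXNDC5 is a protein disulfide isomerase of the ER, and DERL3 takes part in the removal of misfolded proteins from it. Several of these genes are also used by other cells: MZB1, TXNDC5 and DERL3 by plasmacytoid dendritic cells, PRDM1 and IRF4 by T cells, and XBP1 by many secretory and myeloid cells.

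Levels are given as FPKM (fragments normalised to gene length and to the library's total), after trimmed-mean (TMM) scaling of the libraries, and since they are per length they can be compared between genes. Changes are log2 fold changes with 0.1 added to the scaled FPKM, tested with limma with Benjamini-Hochberg adjusted p-values over all tested genes, and a gene was called at an adjusted p under 0.05. Between 13216275 and 31469332 fragments per library fell on genes. With TMM the typical tested gene had a log2 fold change of −0.02 (median) from day 0 to day 14, and also from day 3 to day 14. Without it these medians were −0.36 and −0.35, so that values on day 14 are to be read against the typical gene. Markers of T cells, NK cells, monocytes, neutrophils, erythroid cells and platelets were detected in every library. They moved with the day as well. On day 14 vs. day 0 all 10 erythroid markers tested were called higher and all 11 neutrophil markers lower (6 of 11 with the RNA integrity number, RIN, as a covariate). The RIN rose with the day. In whole blood, fewer cells of a type and less RNA per cell cannot be told apart.

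**Figure D1:**
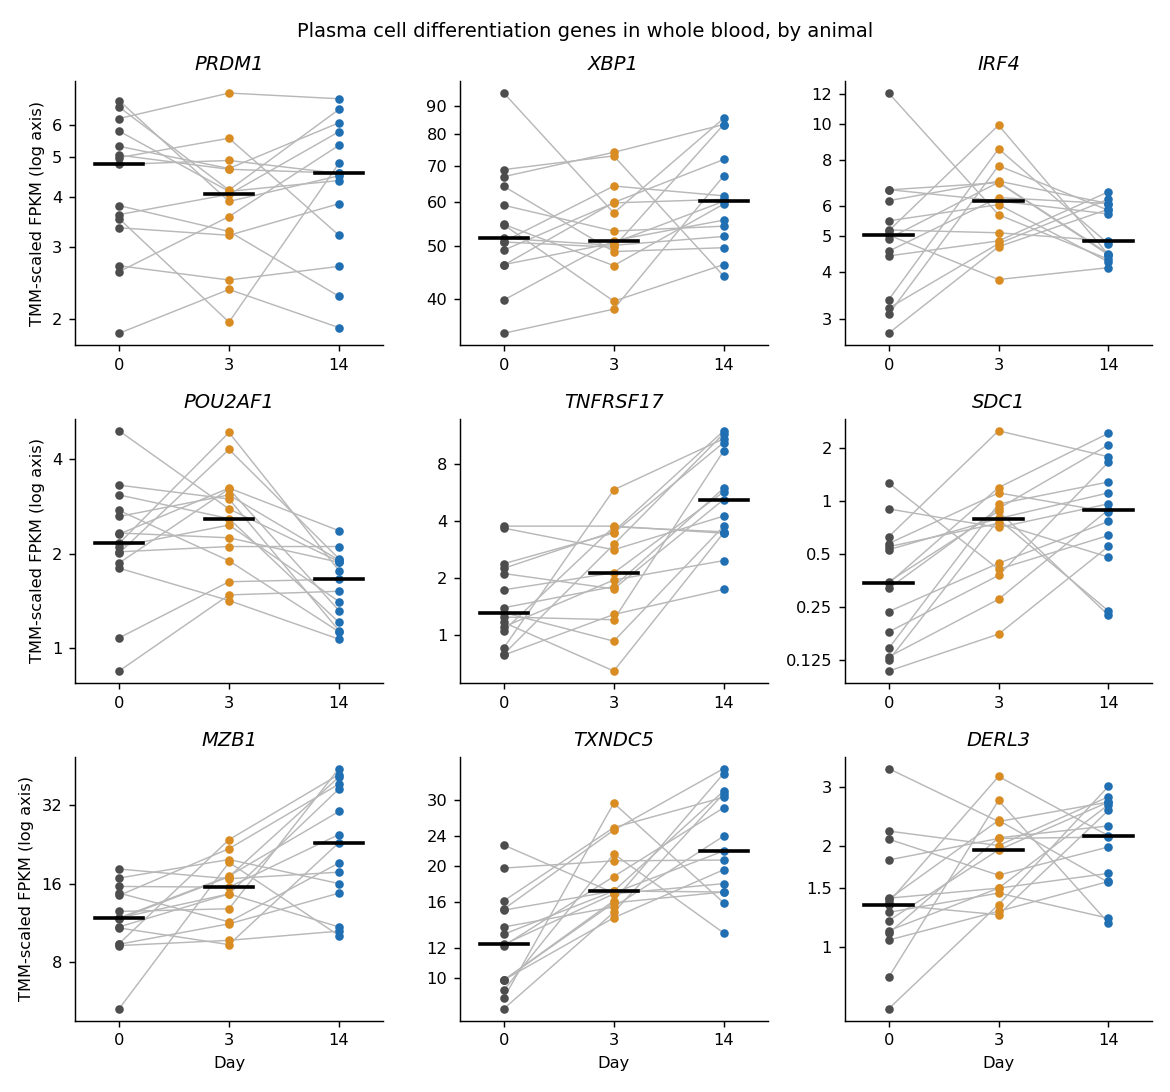
Levels of the 9 genes in TMM-scaled FPKM (log axis) on days 0, 3 and 14; each grey line joins the samples of 1 animal and each black bar is the median of 15 animals. TNFRSF17, MZB1 and TXNDC5 spread upwards on day 14, POU2AF1 narrows at a lower level, and PRDM1 and XBP1 overlap on all days.

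XBP1 was the most abundant of the 9 genes on every day, with medians of 51.6, 51.1 and 60.3 scaled FPKM, and exceeded the next gene in 15 of 15 animals each time. On day 0 TXNDC5 (12.3) and MZB1 (11.8) followed. They did not separate, since TXNDC5 was the higher of the pair in 9 of 15 animals. IRF4 (5.03) and PRDM1 (4.8) did not separate either, with IRF4 higher in 9 animals. POU2AF1 (2.16) stood above DERL3 (1.34) in 14 animals, and DERL3 and TNFRSF17 (1.32) did not separate. SDC1 was lowest at 0.34, below TNFRSF17 in 15 of 15 animals. By day 14 TNFRSF17 had moved from the eighth place to the fourth (5.21), next to IRF4 (4.85), which it exceeded in 8 of 15 animals. POU2AF1 fell to the eighth place (1.66).

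On day 14 vs. day 0, 6 of the 9 genes were called. Both surface receptors and all 3 ER genes were higher, and the coactivator POU2AF1 was lower. The 3 transcription factors PRDM1, XBP1 and IRF4 were not called. Without TMM scaling 3 of the 9 were higher and 1 lower, and with the RIN as a covariate 4 were higher and 0 lower. Over all tested genes 18.8% were called higher, 17.3% lower and 36.0% in either direction in this comparison, so that calls were frequent. The shares called higher and lower were 7.79% and 41.8% without TMM scaling, 23% and 21% with the animal as a block, and 11.8% and 8.13% with the RIN as a covariate, and list counts under these settings are to be read against them. The median log2 fold change of the 9 genes was 0.56, and 0.15 without TMM scaling.

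TNFRSF17, the APRIL and BAFF receptor, changed most of the 9. It ranged from 0.788 to 3.77 scaled FPKM on day 0 with a median of 1.32, from 0.649 to 5.86 on day 3 with a median of 2.14, and from 1.75 to 12 on day 14 with a median of 5.21. On day 14, 9 of 15 samples lay above every day 0 sample, and the level was higher than on day 0 in 14 of 15 animals. The log2 fold change was 1.75 (standard error 0.28, adjusted p = 9.19e-06), which is 3.36-fold. By the estimates the larger step came after day 3, though the difference between both steps was not tested. On day 3 the log2 fold change from day 0 was 0.50 (standard error 0.28, adjusted p = 0.265), with 9 animals higher, and from day 3 to day 14 it was 1.25 (standard error 0.28, adjusted p = 0.00474), with 13 animals higher. In animal 10, the one animal with a lower level on day 14 than on day 0, the levels were 3.77, 3.77 and 3.46 on the 3 days. On day 14 the animals parted into 5 at 9.41 or above (animals 7, 9, 11, 12 and 13) and 10 at 5.98 or below. With any single animal left out, the log2 fold change from day 0 to day 14 lay between 1.61 and 1.88 and stayed called.

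SDC1, the CD138 proteoglycan, was scarce, with 3 to 62 fragments per library, so that single values carry a large counting error. Its level ranged from 0.108 to 1.26 scaled FPKM on day 0 (median 0.34), from 0.175 to 2.5 on day 3 (median 0.785) and from 0.224 to 2.42 on day 14 (median 0.891). The ranges overlapped widely, and 5 of the day 14 samples exceeded every day 0 sample. The log2 fold change was 1.14 on day 14 vs. day 0 (standard error 0.30, adjusted p = 0.00251, higher in 12 of 15 animals). On day 3 it was 0.83 (standard error 0.30, adjusted p = 0.0604, higher in 13 animals), and a replicate block for the animal gave an adjusted p of 0.0208, and 0.0539 with the RIN added to it. The day 3 call was also made when animal 5 or animal 14 was left out. Between days 3 and 14 the change was 0.31 (standard error 0.30, adjusted p = 0.507).

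MZB1, the ER protein of antibody-secreting cells, had 5.28 to 18.2 scaled FPKM on day 0 (median 11.8), 9.32 to 23.6 on day 3 (median 15.5) and 10.1 to 44.3 on day 14 (median 23). As for TNFRSF17, 9 of the day 14 samples lay above the whole day 0 range. The log2 fold change on day 14 vs. day 0 was 0.93 (standard error 0.20, adjusted p = 0.000325, higher in 12 of 15 animals). Without TMM scaling it was 0.51 (adjusted p = 0.0745). From day 3 to day 14 the change was 0.57 (standard error 0.20) with an adjusted p of 0.0505, and of 0.0197 with the replicate block. The value thus lay at the threshold. The call was also gained with voom weights (adjusted p = 0.0344) and when any one of animals 2, 4, 10 or 15 was left out. It was not made with the RIN as a covariate (0.44, adjusted p = 0.168, and 0.145 with the block as well) or without TMM scaling (0.19, adjusted p = 0.541). The 3 animals in which MZB1 was lower on day 14 than on day 0 were animals 2, 10 and 14, and SDC1 was lower in the same 3.

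TXNDC5, the disulfide isomerase, was the one gene of the 9 called at both later days against day 0 in the fit without the block. It ranged from 8.27 to 22.7 scaled FPKM on day 0 (median 12.3), from 14.5 to 29.4 on day 3 (median 17.1) and from 13.2 to 36.4 on day 14 (median 21.9). The lowest day 3 sample stood above the day 0 median. The log2 fold change was 0.57 on day 3 (standard error 0.15, adjusted p = 0.01) and 0.87 on day 14 (standard error 0.15, adjusted p = 1.69e-05), each with 14 of 15 animals higher. Without TMM scaling the changes were 0.52 on day 3 (adjusted p = 0.0804) and 0.44 on day 14 (adjusted p = 0.0488). From day 3 to day 14 the change was 0.30 (standard error 0.15, adjusted p = 0.155), and −0.08 without TMM scaling.

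DERL3, of the ER degradation pathway, moved least among the genes that rose. Its medians were 1.34, 1.95 and 2.15 scaled FPKM on the 3 days, within ranges of 0.655 to 3.41, 1.25 to 3.23 and 1.18 to 3.02. No day 14 sample lay above the highest day 0 sample, which was that of animal 14. The log2 fold change on day 14 vs. day 0 was 0.56 (standard error 0.17, adjusted p = 0.00755), and 12 of 15 animals were higher. This call was lost with the RIN as a covariate (0.50, adjusted p = 0.0645), though not with the RIN and the block together (adjusted p = 0.0438), and it was lost without TMM scaling (0.15, adjusted p = 0.564).

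POU2AF1, the octamer coactivator, went the other way. It ranged from 0.847 to 4.93 scaled FPKM on day 0 (median 2.16), from 1.42 to 4.87 on day 3 (median 2.59) and from 1.07 to 2.37 on day 14 (median 1.66). The day 14 samples were bunched, and 6 of them lay below every day 3 sample. From day 3 to day 14 the log2 fold change was −0.65 (standard error 0.17, adjusted p = 0.0142), with 13 of 15 animals lower. On day 14 vs. day 0 it was −0.44 (standard error 0.17, adjusted p = 0.0429), and 11 animals were lower. The latter adjusted p lay near the threshold. With the RIN as a covariate the log2 fold change was −0.41 (adjusted p = 0.169), and −0.26 with the RIN and the block together (adjusted p = 0.359). Leaving out any one of animals 1, 2, 3, 5, 6, 9, 12, 13 or 14 ended the call, with fold changes between −0.53 and −0.37 over all animals left out in turn. The replicate block kept it (adjusted p = 0.0157), and without TMM scaling the change was −0.85 (adjusted p = 0.00423).

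PRDM1, XBP1 and IRF4, the transcription factors, were not called in any of the 3 comparisons with TMM scaling. PRDM1 ranged from 1.84 to 6.9 scaled FPKM on day 0 (median 4.8), from 1.96 to 7.2 on day 3 (median 4.05) and from 1.9 to 6.97 on day 14 (median 4.56), and its log2 fold change on day 14 vs. day 0 was 0.01 (standard error 0.19, adjusted p = 0.979), and −0.41 without TMM scaling (adjusted p = 0.0711). XBP1 ranged from 34.6 to 95.1 on day 0, from 38.3 to 74.1 on day 3 and from 44 to 85.5 on day 14, with a change on day 14 vs. day 0 of 0.18 (standard error 0.12, adjusted p = 0.233) that was −0.25 without TMM scaling. Gene-level FPKM do not separate spliced from unspliced XBP1 mRNA, the former encoding the active factor. IRF4 ranged from 2.74 to 12.1 on day 0, from 3.82 to 9.92 on day 3 and from 4.11 to 6.57 on day 14. Its median was highest on day 3 (6.21), where the change from day 0 was 0.32 (standard error 0.14, adjusted p = 0.148, higher in 11 animals), and 0.0334 was the adjusted p without animal 14, the animal with the highest day 0 level. From day 3 to day 14 its change was −0.25 (standard error 0.14, adjusted p = 0.242), and −0.62 without TMM scaling (adjusted p = 0.0231).

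Day 3 vs. day 0 therefore gave 1 call among the 9 genes, TXNDC5, where 6.01% of all tested genes were called higher, 6.19% lower and 12.2% in either direction. Day 14 vs. day 3 gave 2 calls, TNFRSF17 higher and POU2AF1 lower, where 8.38% of all tested genes were called higher, 5.01% lower and 13.4% in either direction. Here the shares higher and lower were 3.23% and 35.2% without TMM scaling, 13.9% and 9.76% with the block, and 4.70% and 1.35% with the RIN.

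**Figure D2:**
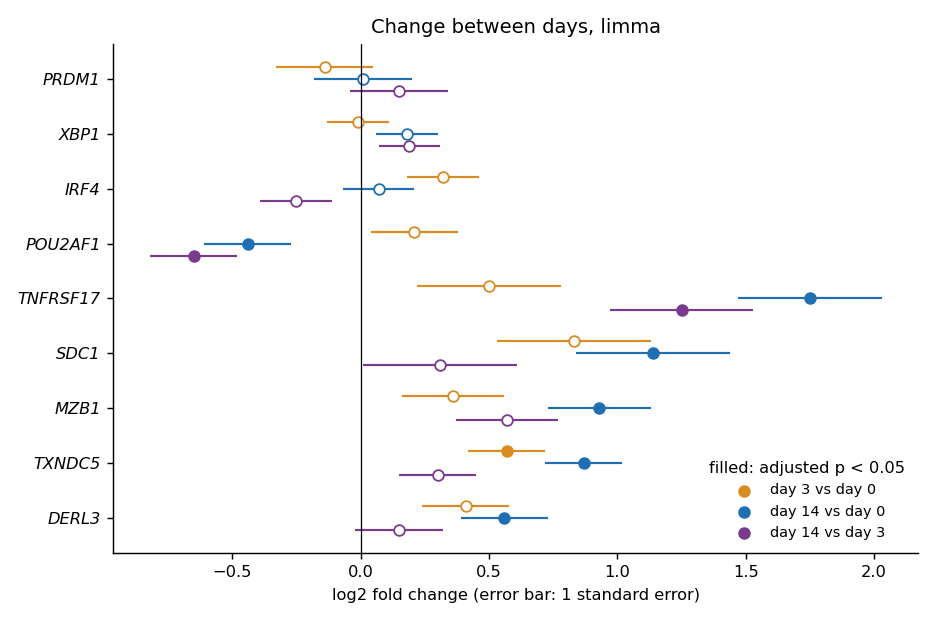
Log2 fold changes of the 9 genes in the 3 comparisons with 1 standard error (limma, 15 animals per day); filled points have an adjusted p under 0.05. TNFRSF17 has the largest values on day 14 vs. day 0 (1.75) and day 14 vs. day 3 (1.25), and POU2AF1 lies on the other side of 0 in both.

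Among 13 other genes with known plasma cell roles, 6 were called higher and 2 lower on day 14 vs. day 0 (18.8% and 17.3% of all tested genes), with a median log2 fold change of 0.46. Without TMM scaling 3 were higher and 2 lower, with a median of 0.06. IGJ, the joining chain of polymeric IgA and IgM, was the closest to TNFRSF17 in size. It ranged from 35.5 to 203 scaled FPKM on day 0 (median 84.2), from 24.7 to 217 on day 3 (median 95.5) and from 67.2 to 571 on day 14 (median 247). Its log2 fold change was 1.68 on day 14 vs. day 0 (standard error 0.31, adjusted p = 4.03e-05, higher in 14 animals) and 1.52 on day 14 vs. day 3 (standard error 0.31, adjusted p = 0.00225, higher in 13). FAM46C rose by 2.54 (adjusted p = 4.02e-05). It is also a gene of red cell precursors, whose 10 markers rose by a median of 2.85, and their part in its rise was not tested. FKBP11, a chaperone of secretory cells, rose by 0.46 (adjusted p = 0.000733), a change that was 0.04 without TMM scaling (adjusted p = 0.832). The 2 called lower were FCRL5 (−0.66, adjusted p = 0.00137, lower in 13 animals) and PIM2 (−0.37, adjusted p = 0.0115). CD38 (0.05, adjusted p = 0.824) and CD27 (0.08, adjusted p = 0.652) were not called. Between days 3 and 14, 3 of the 13 were higher and 1 lower (8.38% and 5.01% of all tested genes), and 5 higher and 1 lower with the replicate block. The median was 0.25, and −0.12 without TMM scaling. Without that scaling IGJ alone was higher (adjusted p = 0.00463), and FCRL5 and PIM2 were lower (adjusted p = 0.00349 and 0.0194).

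Of 6 tested genes that hold the B cell state against plasma cell formation, 5 were called lower and 0 higher on day 14 vs. day 0, where 17.3% of all tested genes were lower. Their median log2 fold change was −0.83. With the RIN as a covariate 3 of the 6 were called lower, BCL6, BACH2 and MITF. PAX5 (−0.84, adjusted p = 0.0617) and CIITA (−0.55, adjusted p = 0.135) were not among them. MITF (−0.80 without the RIN, adjusted p = 0.00225) was scarce, with 7 to 101 fragments per library on day 14. The sixth, ETS1, changed by 0.11 (adjusted p = 0.477). BCL6, the germinal centre repressor that opposes PRDM1, went from a median of 17.5 scaled FPKM (7.08 to 75.8) to 6.04 (3.08 to 14), a log2 fold change of −1.59 (standard error 0.30, adjusted p = 7.73e-05, lower in 14 animals). BCL6 is also a gene of neutrophils, whose 11 markers fell by a median of 1.25 on the log2 scale. The part of neutrophils in its fall was not tested. BACH2, a repressor of PRDM1 in B and T cells, changed by −0.85 (standard error 0.19, adjusted p = 0.000574), with 12 animals lower. PAX5, the B cell identity factor, changed by −0.91 (standard error 0.27, adjusted p = 0.00791), with 12 animals lower. Between days 3 and 14, 3 of the 6 fell (5.01% of all tested genes were lower), BACH2 (−0.63, adjusted p = 0.0284, lower in 15 of 15 animals, and −0.51 with an adjusted p of 0.101 with the RIN), PAX5 (−1.09, adjusted p = 0.00998) and CIITA (−0.76, adjusted p = 0.0202).

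B cell identity genes formed another list, which holds PAX5 too. On day 14 vs. day 0, 3 of 14 tested were called lower and 0 higher (median −0.40), a share near the 17.3% lower among all tested genes. The number called lower was 6 with the replicate block (21% of all tested genes), 11 without TMM scaling (41.8%) and 1, EBF1, with the RIN as a covariate (8.13%). The called ones were EBF1 (−0.93, adjusted p = 0.00174), PAX5 and FCRLA (−0.49, adjusted p = 0.0492). All 14 fold changes were below 0. Between days 3 and 14, 6 of 14 were lower against 5.01% of all tested genes, with a median of −0.66. The number was 10 with the block (9.76% of all tested genes), 13 without TMM scaling (35.2%) and 3 with the RIN (1.35%). The summed level of the 14 genes had a median of 412 scaled FPKM on day 0 (95.8 to 735), 394 on day 3 (236 to 649) and 270 on day 14 (185 to 445).

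Each of the 9 genes was therefore also set against the B cell genes, as its log2 level minus the mean log2 level of the 14 B cell identity genes in the same library. This ratio is a description, with no test. From day 0 to day 14 it rose by 2.21 ± 1.41 (SD, n = 15) for TNFRSF17, in 14 of 15 animals, by 1.60 ± 1.5 for SDC1, by 1.39 ± 1.1 for MZB1 and by 1.32 ± 1.01 for TXNDC5. For DERL3 it rose by 1.01 ± 0.80, and for XBP1, IRF4 and PRDM1 by 0.64 ± 1.11, 0.53 ± 0.56 and 0.47 ± 0.95. For POU2AF1 the difference was 0.02 ± 0.51, above 0 in 8 of 15 animals. The B cell level is shared, so its fall adds the same amount to the ratio of each of the 9 genes. The changes of XBP1, IRF4 and PRDM1 themselves were 0.18, 0.07 and 0.01, none of them called. Animal 10 stood apart, with lower ratios on day 14 than on day 0 for all 9 genes.

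**Figure D3:**
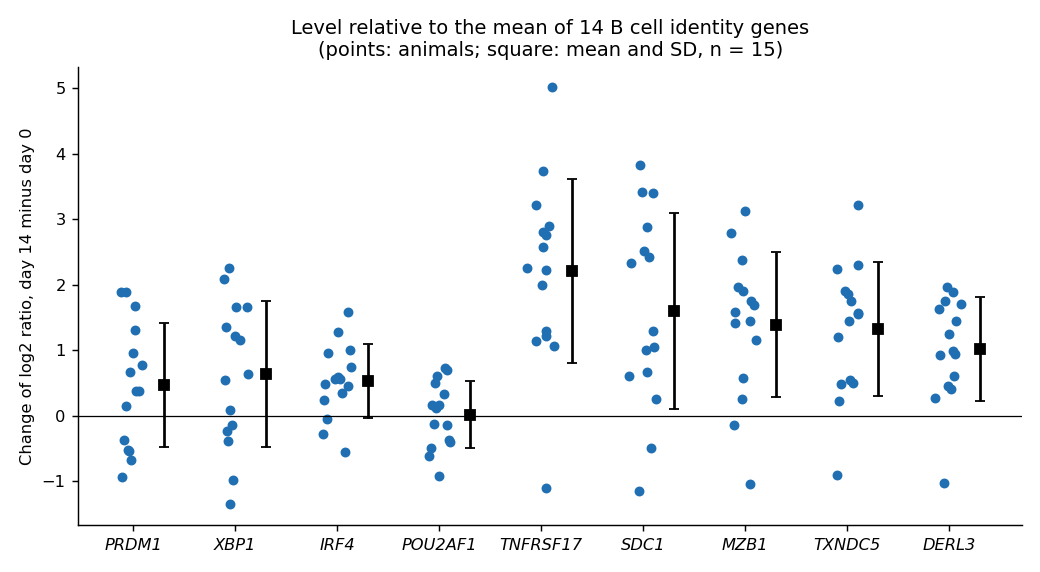
Change from day 0 to day 14 in the log2 level of each gene relative to the mean log2 level of 14 B cell identity genes; points are animals, squares and bars are mean and SD (n = 15). TNFRSF17 lies highest (2.21 ± 1.41) and POU2AF1 is centred on 0 (0.02 ± 0.51).

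The ligands of TNFRSF17 were not called on day 14 vs. day 0 with TMM scaling. TNFSF13 (APRIL) had a median of 9.54 scaled FPKM on day 0 and 9.58 on day 14, a change of −0.18 on the log2 scale (standard error 0.19, adjusted p = 0.476). TNFSF13B (BAFF) had medians of 21 and 19.2 (−0.13, standard error 0.21, adjusted p = 0.683). Of the 4 genes of the BAFF and APRIL axis tested, 0 were called on day 14 vs. day 0 by limma (36.0% of all tested genes, in either direction), 0 had an unadjusted p under 0.05 and 0 were called with voom weights. With the replicate block 1 was called lower, TNFRSF13C (adjusted p = 0.0476), where 21% of all tested genes were lower, and without TMM scaling, where 41.8% were lower, 3 were, TNFRSF13C, TNFSF13 (−0.60, adjusted p = 0.0161) and TNFSF13B (−0.55, adjusted p = 0.0243). TNFRSF13C, the BAFF receptor of B cells, fell between days 3 and 14 (−1.15, standard error 0.31, adjusted p = 0.0153, lower in 15 of 15 animals), the interval in which TNFRSF17 rose. TNFSF13 changed by −0.46 over that interval (adjusted p = 0.0934, and 0.0445 with the replicate block). The adjusted p was 0.102 with the block and the RIN together. Without TMM scaling the change was −0.84 (adjusted p = 0.00373).

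The unfolded protein response acts upstream and downstream of XBP1. Of 7 tested genes of its arms, sensors and transcription factors, 2 were higher and 2 lower on day 14 vs. day 0 (18.8% and 17.3% of all tested genes). Without TMM scaling 5 were lower and 0 higher, and with the RIN as a covariate 1 was lower and 0 higher. ERN1 (IRE1), whose enzyme splices XBP1 mRNA, had medians of 7.13 and 5.49 scaled FPKM (a log2 change of −0.34, standard error 0.15, adjusted p = 0.0695, and 0.0489 with the replicate block). Its change was −0.17 with the RIN as a covariate (adjusted p = 0.549) and −0.76 without TMM scaling (adjusted p = 0.0015). EIF2AK3 (PERK) fell (−0.54, adjusted p = 2.75e-06, lower in 15 of 15 animals), as did ATF6 (−0.25, adjusted p = 0.0163). ATF4, a factor downstream of PERK, rose (0.25, adjusted p = 0.0339), though its change was −0.18 without TMM scaling. Genes of ER protein import, folding and secretion were called higher in 20 of 44 and lower in 2 of 44 (18.8% and 17.3% of all tested genes), in 7 and 1 with the RIN as a covariate, and in 2 and 12 without TMM scaling. Their median was 0.24 with TMM scaling and −0.19 without it, so that the direction of the list rests on the scaling. SPCS2, of the signal peptidase (0.50, adjusted p = 1.52e-05, but 0.08 with an adjusted p of 0.656 without TMM scaling), and SEC62, of the translocon (1.35, adjusted p = 1.93e-05), rose, and ERO1LB, an ER oxidase (−0.75, adjusted p = 9.85e-06), fell.

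**Figure D4:**
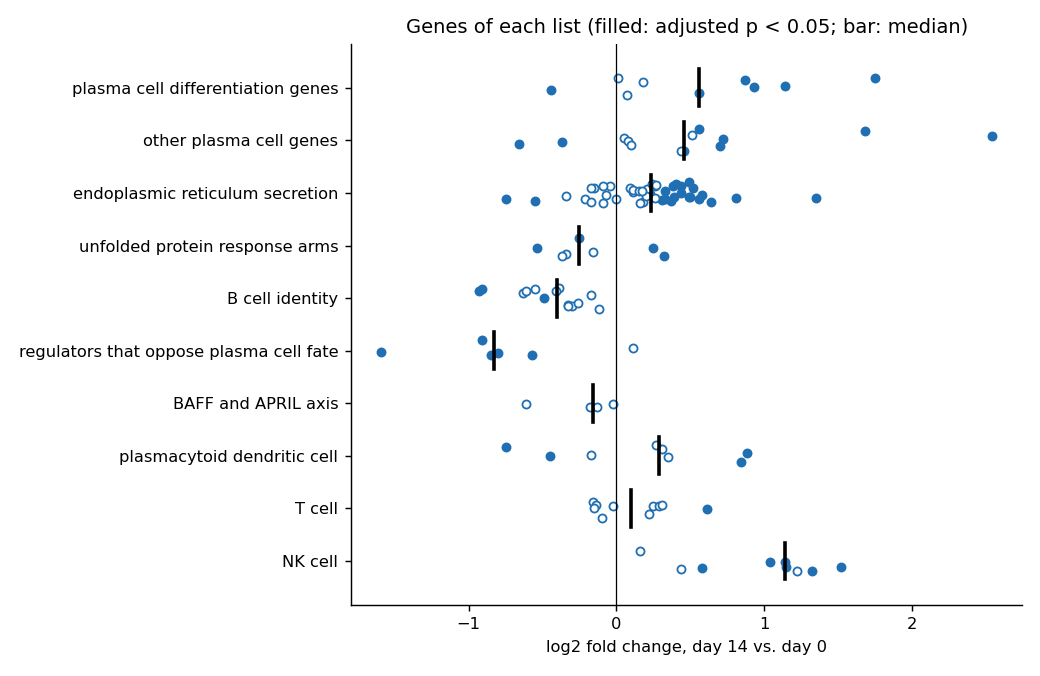
Log2 fold changes on day 14 vs. day 0 (limma) for the genes of 10 lists; filled points have an adjusted p under 0.05 and bars are list medians. The medians are 0.56 for the 9 plasma cell differentiation genes, 0.46 for other plasma cell genes, −0.40 for B cell identity genes and −0.83 for regulators that oppose plasma cell fate.

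Cells other than plasma cells that express MZB1, TXNDC5 and DERL3 were looked at through their markers, and the counts stand against 18.8% of all tested genes called higher and 17.3% lower. Of 8 plasmacytoid dendritic cell genes tested, 2 were called higher and 2 lower on day 14 vs. day 0, 4 and 2 with the replicate block, 0 and 1 with the RIN as a covariate, and 0 and 3 without TMM scaling. Their summed level lay between 63.5 and 183 scaled FPKM on day 0 and between 54.4 and 83.2 on day 14, and no marker was at 0 in all libraries. PTCRA (0.88, adjusted p = 0.0455, but 0.52 with an adjusted p of 0.213 without TMM scaling) rose and TCF4 (−0.45, adjusted p = 0.0132) and IRF7 (−0.75, adjusted p = 0.0268) fell. SERPINF1, under 1 scaled FPKM on average, rose too (0.84, adjusted p = 0.0096, but 0.53 with an adjusted p of 0.0791 without TMM scaling). LILRA4 (0.31) and PLD4 (0.35) were called higher with the replicate block (adjusted p = 0.0434 and 0.0474). They were not called in the fit without it or with the RIN added to it. SMPD3 (0.27) and IRF8 (−0.17) were not called. IRF7 alone reached 137 scaled FPKM on day 0, so the summed level leans on it. T cell markers were called higher in 1 of 10, in 4 with the replicate block and in 0 with the RIN, and without TMM scaling 3 were lower and 0 higher, with summed levels of 338 to 781 on day 0 and 505 to 844 on day 14. NK cell markers were higher in 6 of 9 (summed level 117 to 648 on day 0, 309 to 1470 on day 14). Monocyte markers were lower in 2 of 10 (882 to 8281 on day 0, 985 to 2654 on day 14), in 4 with the block, 6 without TMM scaling and 0 with the RIN. Platelet markers were higher in 2 of 9 (236 to 4344 on day 0, 415 to 3497 on day 14), in 6 with the block and 0 with the RIN. Erythroid markers summed to 392 to 20773 on day 0 and 6715 to 60655 on day 14, and neutrophil markers to 1051 to 6536 and 685 to 1590. The part of these cells in the levels of the 9 genes was not tested.

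Levels of several of the 9 genes were correlated over animals. Of 36 pairs of the 9 genes on each of 3 days, 20 of the 108 correlations over 15 animals passed at a Benjamini-Hochberg adjusted permutation p under 0.05, 4 on day 0, 5 on day 3 and 11 on day 14. On day 14 TNFRSF17 and MZB1 had Pearson's r = 0.92 and Spearman's rho = 0.87 (permutation p = 1e-05 for r, the smallest that 100000 permutations can give, and 3e-05 for rho, adjusted p = 0.00036 and 0.000648), and r = 0.90 without the 2 animals farthest from the median of TNFRSF17. MZB1 and TXNDC5 had r = 0.92 and rho = 0.91 (permutation p = 1e-05 and 2e-05, adjusted p = 0.00036 and 0.000648), and r = 0.92 without the 2 farthest animals. The 5 animals with the highest TNFRSF17 on day 14 were also the 5 highest for MZB1 and for TXNDC5. Since these 5 lay apart, r was also computed over the 10 animals below the gap: it was 0.74 for TNFRSF17 with MZB1 and 0.76 for MZB1 with TXNDC5, and 0.41 for TNFRSF17 with TXNDC5. These pairs and the gap were picked from the same values, so these r are descriptions with no test.

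XBP1, which was not called in any of the 3 comparisons, was correlated with MZB1 on day 14 (r = 0.86, rho = 0.92, permutation p = 6e-05 and 1e-05, adjusted p = 0.00108 and 0.000648, and r = 0.83 without the 2 farthest animals). Over the 10 animals below the gap the r was 0.78, again with no test. IRF4 and POU2AF1 formed another pair, with r = 0.91 and rho = 0.90 on day 3 (permutation p = 1e-05 and 2e-05, adjusted p = 0.00036 and 0.000648), and 0.84 without the 2 farthest animals. On day 14 their r was 0.44 and rho 0.45 (permutation p = 0.0992 and 0.0947, adjusted p = 0.219 and 0.263), and r was 0.41 without the 2 farthest animals. The 2 farthest animals were picked on the first gene of a pair alone, so an animal far off in the second gene stayed in. Without these 2 animals, 6 of the 20 correlations still passed. Some of those that no longer passed kept their r over the 13 animals left, such as MZB1 with TXNDC5 on day 3 (r = 0.73 and 0.74, adjusted permutation p = 0.0517 without the 2), while others fell, such as IRF4 with DERL3 on day 0 (0.72 and 0.31).

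**Figure D5:**
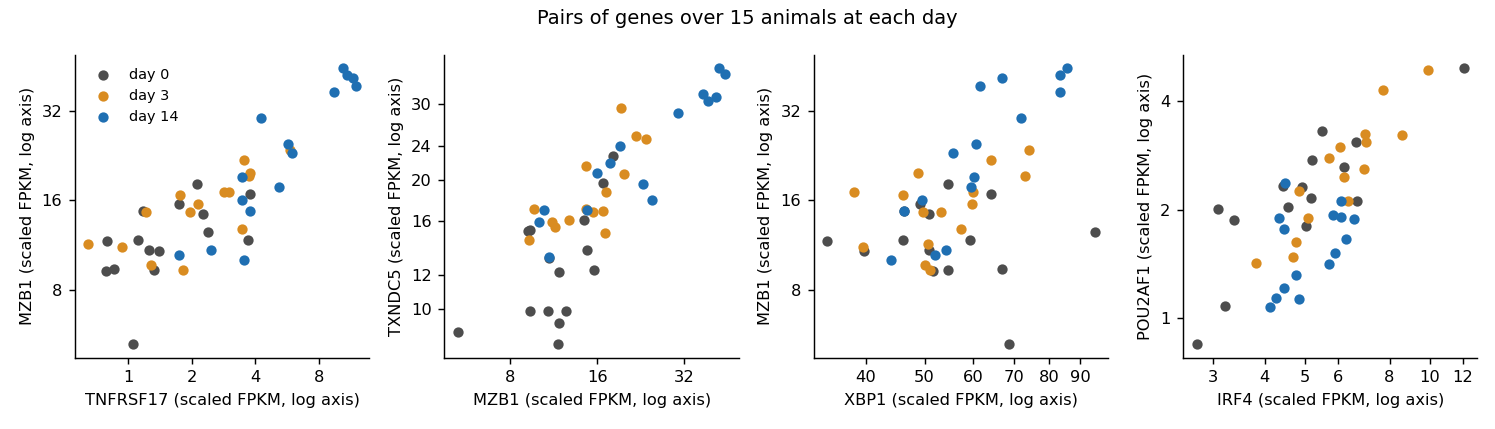
Scaled FPKM (log axes) of 4 pairs of genes, each point a sample of 1 animal, coloured by day (15 per day). On day 14 the 5 animals highest in TNFRSF17 (9.41 or above) are also the highest in MZB1, and IRF4 and POU2AF1 follow each other on day 3 (r = 0.91).

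The changes within animals from day 0 to day 14 were correlated for 4 of the 36 pairs. The share over pairs of all tested genes was not computed here either. For MZB1 and TXNDC5 r was 0.89 and rho 0.93 (permutation p = 2e-05 and 1e-05, adjusted p = 0.00072 and 0.00036), and r = 0.93 without the 2 farthest animals. For IRF4 and POU2AF1 r was 0.81 and rho 0.81 (permutation p = 0.0003 and 0.00047, adjusted p = 0.00516 and 0.00564), and r = 0.73 without them. For SDC1 and TXNDC5 r was 0.79 and rho 0.74 (permutation p = 0.00043 and 0.00209, adjusted p = 0.00516 and 0.015), and r = 0.74 without them. For TNFRSF17 and MZB1 r was 0.75 and rho 0.81 (permutation p = 0.00113 and 0.00031, adjusted p = 0.0102 and 0.00558), and r = 0.61 without them, which no longer passed (adjusted permutation p = 0.132). The change in PRDM1 was not correlated with that in TNFRSF17 (r = −0.03, rho = 0, permutation p = 0.903 and 1, adjusted p = 0.985 and 1, and r = −0.02 without the 2 farthest animals).

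Over all 45 libraries, after the mean of each day was removed, the tested gene most like TNFRSF17 was IGJ (Pearson's r = 0.90), followed by MZB1 (0.76), PAIP1 (0.75), ARFGAP3 (0.74) and BRIX1 (0.71). For MZB1 they were TXNDC5 (0.77), TNFRSF17 (0.76), IGJ (0.76), LOC103222280 (0.71) and PDHA1 (0.68). For XBP1 they were BHLHA15 (0.76), a secretory cell transcription factor, then GLA (0.70), ANXA5 (0.68), SOAT1 (0.68) and TMEM165 (0.66), none of them among the 9 genes. These values are descriptions over libraries that share animals.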

How the data were processed

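Whole-blood RNA (globin and ribosomal RNA removed, stranded paired-end libraries) was sequenced from 15 vervets on 3 days. The authors demultiplexed with bcl2fastq 2.17, aligned with STAR to Chlorocebus_sabeus 1.1, counted with HTSeq and deposited FPKM per gene, from which whole fragments were recovered for 100% of genes (tolerance 0.02 fragment). Libraries held 13216275 to 31469332 fragments. SDC1 has few fragments, so its values carry the most counting error. Here FPKM were scaled by TMM, 0.1 was added, and log2 values of 18753 genes with over 0.5 CPM in at least 3 samples were fitted with limma 3.58.1 (R 4.3.3), with 1 mean per day. Samples of the same animal deviated together (mean r 0.328 across genes, above 0.1 in 41 of 45 pairs, against −0.0382 between animals), so a fit with a replicate block for the animal is given where it changes a call of the 9 genes or moves a list's count by over 1.5 times. Correlations used 100000 permutations, two-sided. All 9 genes are named. From other lists the text names the 3 lowest adjusted p on day 14 vs. day 0 among genes with a mean of at least 1 FPKM and the direct partners of the 9 (ERN1, TNFSF13, TNFSF13B, BCL6, BACH2, PAX5, IGJ). ETS1, CIITA, MITF, FCRL5, PIM2, CD38, CD27, SERPINF1, LILRA4, PLD4, SMPD3 and IRF8 were named after their values were seen. The 9 genes and the lists were chosen with earlier results of these data known. Tests were checked on simulated data. The simulated libraries had no animal effect and no TMM scaling, and only well-counted genes were changed. The scaling, the pairing and scarce genes such as SDC1 were thus not checked. Alternatives were other scalings, added constants and filters, the replicate block, the RIN as a covariate, voom weights, and each animal left out.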

Additional observations from a re-analysis of the deposited data

How the results depend on the processing

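Animals set the limits here, with 15 per day. The main fit has no term for the animal and treats the 45 libraries as independent. Its p-values set a change against a spread that mixes differences between animals and within them. Only the replicate block sets a change against the spread within animals. On day 3 vs. day 0 the number of the 9 genes called was 1, and it was 0 without TMM scaling, 2 with a filter of over 1 CPM in at least 15 samples, 2 with the replicate block, and 1 to 4 when each animal was left out (4 without animal 14). On day 14 vs. day 0 it was 5 to 6 and on day 14 vs. day 3 it was 2 to 3 when each animal was left out. The replicate block added SDC1 on day 3 vs. day 0 and MZB1 on day 14 vs. day 3 and changed no other call of the 9 genes. MZB1 on day 14 vs. day 3 was also called with voom weights (adjusted p = 0.0344), with 1 added (0.046), with median-of-ratios scaling (0.0494) and with the stricter filter (0.042), but neither without TMM scaling nor with the RIN. POU2AF1 on day 14 vs. day 0 passed the threshold no longer without a filter (−0.44 as before, adjusted p = 0.0721) and with the block and the RIN together (−0.26, adjusted p = 0.359). IRF4 on day 14 vs. day 3 was called without TMM scaling (−0.62, adjusted p = 0.0231). Within-day correlations that passed went from 20 to 7 without the 2 farthest animals, and those of changes stayed at 4, of which 3 were shared. The changes of TNFRSF17 with TXNDC5 and of POU2AF1 with DERL3 lay just above the threshold (both adjusted permutation p = 0.052), and an earlier draw of the permutations put them just below it. The mean or the median of the B cell list gave ratios that differed by less than 1 SD. Over all tested genes, the block raised the calls on day 3 vs. day 0 from 2287 to 3593 and on day 14 vs. day 3 from 2511 to 4446, and the RIN as a covariate lowered them to 1436 and 1135, and on day 14 vs. day 0 from 6756 to 3730. Calls on day 14 vs. day 0 were 52.1% higher with TMM and 15.7% without it. On day 14 vs. day 3 they were 62.6% and 8.41%, and 7206 genes were then called. The causes were not tested.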
